A study of Mus musculus with 95 samples.

Results

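Pramef8 and Pramef25 are Prame-like genes of the mouse, and both were chosen by values measured in these samples: the first was higher than in wild-type in all 6 Pcgf knockout lines, while the second was higher in some lines and nearly lost in others. They are set beside the 8 other genes whose symbol begins with Pramef or Pramel and whose counts, summed over the 14 RNA-seq libraries, were highest. The 10 genes stand among 23377 in the count table, and 11 in all carry such a symbol. The 8 were Pramef12 (6757 counts in all), Pramel6 (4696), Pramel7 (2776), Pramef17 (376), Pramel3 (187), Pramel1 (181), Pramel5 (133) and Pramef6 (127). The gene just below them, Pramel4, had 6 counts and was left out. Because the changes of Pramef8 and Pramef25 led to their choice, they are described here with no test, and because a sum of counts favours genes that are high in at least 1 genotype, the calls among the other 8 are also read as a description.

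Prame-like proteins are built of leucine-rich repeats and are named after human PRAME, an antigen first found in melanoma. The genes form a large and recently expanded rodent family that lies mostly in tandem clusters and is expressed mainly in germ cells, oocytes and early embryos. Pramel6 and Pramel7 are the best studied: in mouse embryonic stem cells they are induced by the LIF and STAT3 pathway, and Pramel7 recruits a CUL2 ubiquitin ligase that removes UHRF1, the partner of the maintenance DNA methyltransferase DNMT1. PCGF proteins are the subunits that set the variants of Polycomb repressive complex 1 (PRC1) apart. PRC1 places the mark H2AK119ub1, a ubiquitin on histone H2A, through RING1A or RING1B, and the PCGF6 variant also holds the DNA-binding proteins MGA, MAX and E2F6 and is known for silencing germline genes.

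All cells were E14 mouse embryonic stem cells or lines made from them, grown in serum with LIF, a GSK3-beta inhibitor and a MEK1/2 inhibitor. RNA was sequenced from 7 groups of 2 libraries: wild-type, Pcgf1-/-, Pcgf2/4-/-, Pcgf3/5-/-, Pcgf6-/-, Pcgf1/2/4-/- and Pcgf3/5/6-/-. The knockouts were made with Cas9 and isolated as clones, and the columns of the count table name 1 clone per knockout, so that genotype and clone cannot be told apart. The ChIP-seq part gives 80 peak lists, nearly always 1 per antibody and line, from these lines and from cells labelled Ring1a-/-_Ring1bfl, Ring1a/b-/- and Ezh1/2-/- or with knockdowns labelled shCtr, shMGA, shMGAdHLH, shE2F6, shE2F6-MGAdHLH, shUsf1 and shUsf2.

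Library totals ran from 2147968 to 7848161 counts. The 2 wild-type libraries differed by no more than the sampling noise (chi-square per degree of freedom 0.958, p = 1 over all genes tested and 1.03, p = 0.134 over genes with a mean under 20 counts). Their mean is therefore counted as 1 sample, without an SD, but the edgeR fit behind the p-values keeps them as 2 libraries. The knockout pairs differed more. Their chi-square per degree of freedom was 10.1 in Pcgf1-/-, 19.5 in the libraries labelled Pcgf2/4-/- and 5.31 in Pcgf3/5-/-. It was 1.89 in Pcgf6-/-, 1.18 in the libraries labelled Pcgf1/2/4-/- and 1.19 in those labelled Pcgf3/5/6-/-. All groups share 1 estimate of the spread in the fit. No source used here says that any pair came from separate cultures, so p-values may measure technical spread only. Pcgf6 itself had 0 counts in both Pcgf6-/- libraries and 35.2 CPM in wild-type, where CPM is the usual read count relative to library size, here scaled with TMM factors. In the libraries labelled Pcgf3/5/6-/- it stood at 39.6 ± 3.41 CPM (SD, n = 2). Pcgf1 stood at 4.00 ± 1.14 CPM in Pcgf1-/- against 63.5 CPM in wild-type and had 3 counts in the libraries labelled Pcgf1/2/4-/-, whereas Pcgf2 and Bmi1 (Pcgf4) were not lower there or in the libraries labelled Pcgf2/4-/- by more than 0.18 on the log2 scale. Pcgf3 and Pcgf5 stood at 12.1 and 5.04 CPM in Pcgf3/5-/- against 15.9 and 11.9 CPM in wild-type. Pcgf5 was about as low in Pcgf1-/- (4.73 CPM) and in the libraries labelled Pcgf2/4-/- (4.82 CPM). Its lower level therefore does not single out Pcgf3/5-/-, and it stood at 42.3 CPM in Pcgf6-/-. In the libraries labelled Pcgf3/5/6-/- Pcgf3 and Pcgf5 stood at 13.5 and 15 CPM. A small edit can leave the count of a gene unchanged, and what the labels say of these lines was not tested further.

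Of the 10 genes, 7 lie within 1014 kb of chromosome 4 (NCBIM37, the sequence release behind mm9; chr4:142984331-143998367). In order they are Pramel1, Pramef8, Pramef6, Pramef25, Pramef17, Pramel5 and Pramef12. Pramef8 (ENSMUSG00000046862.8) is on the plus strand at 143002329 to 143010994, 12.3 kb after Pramel1. Pramef25 matched the annotated gene Gm13109 (ENSMUSG00000078511.2) through its RefSeq synonyms and lies on the minus strand at 143538077 to 143544602, 47.8 kb after Pramef6. Pramel7 and Pramel6 are neighbours on chromosome 2 (87329244 to 87337250 and 87346722 to 87351029), and Pramel3 is on chromosome X (131836846 to 131847191). All 10 are annotated as protein-coding, with coding sequences of 1377 to 1503 bases.

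The starts of the genes differ in base composition. The 250 bases before the first annotated start of 4 members are shown, chosen for their peaks: Pramel1 is the member with PCGF6 peaks, Pramef8 and Pramef12 carried H3K4me3 in every line examined, and Pramef25 had no peak in any list. They were read from the NCBIM37 genome, 5′ to 3′ on the strand of the gene, and capitals mark each CG pair and any match to the motifs named after them.
Pramel1, chr4:142984081-142984330, plus strand: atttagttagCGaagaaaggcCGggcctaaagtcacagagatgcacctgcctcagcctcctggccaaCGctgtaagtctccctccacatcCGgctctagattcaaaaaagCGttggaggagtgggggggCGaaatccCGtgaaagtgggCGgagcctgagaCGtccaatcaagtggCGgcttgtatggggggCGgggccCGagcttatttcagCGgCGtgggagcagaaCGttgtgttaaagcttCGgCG
Pramef8, chr4:143002079-143002328, plus strand: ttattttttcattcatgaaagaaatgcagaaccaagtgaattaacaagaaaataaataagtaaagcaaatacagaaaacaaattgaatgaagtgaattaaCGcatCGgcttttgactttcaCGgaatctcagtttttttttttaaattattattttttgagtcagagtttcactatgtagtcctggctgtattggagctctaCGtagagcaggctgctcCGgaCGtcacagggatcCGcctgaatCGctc
Pramef12, chr4:143998368-143998617, minus strand: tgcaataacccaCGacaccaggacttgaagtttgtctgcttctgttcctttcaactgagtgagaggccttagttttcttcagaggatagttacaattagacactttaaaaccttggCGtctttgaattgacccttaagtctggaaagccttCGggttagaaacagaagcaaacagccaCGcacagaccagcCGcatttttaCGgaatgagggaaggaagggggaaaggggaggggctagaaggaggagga
Pramef25, chr4:143544603-143544852, minus strand: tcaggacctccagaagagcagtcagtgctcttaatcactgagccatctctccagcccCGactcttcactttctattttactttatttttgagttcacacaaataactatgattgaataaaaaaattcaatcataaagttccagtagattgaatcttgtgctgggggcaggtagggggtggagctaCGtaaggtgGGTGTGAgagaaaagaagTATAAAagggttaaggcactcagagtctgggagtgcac
The Pramel1 sequence held 17 CG pairs and 57.6% G and C, against a median of 8 pairs and 54% over the same stretch of 22375 protein-coding genes. Pramef8 held 8 pairs, Pramef12 and Pramel3 6 each, Pramel7 4, and Pramef25, Pramel6 and Pramef17 2 each, while Pramef6 had 1 and Pramel5 had 0. The motif CACGTG, an E-box that MAX partners and USF1 bind, was in none of the 10 and in 6.52% of all promoters of this length. TTCCCGCC, an E2F-type motif, was in none of the 10 and in 2.4% of all. GGTGTGA, a T-box half-site, was in Pramef25 alone and in 3.19% of all, and TATAAA was again in Pramef25 alone and in 12.3% of all. Both strands were searched, CACGTG and TTCCCGCC each contain a CG pair, and a match is a string of letters, not a shown site. Bases after the start were not searched for these motifs, and the wild-type PCGF6 peak of Pramel1 reaches 180 bases past it.

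Pramef8 was 1.97 to 4.05 times its wild-type level in the 6 knockout lines. The wild-type libraries gave 50.7 and 47.9 CPM. Pcgf1-/- gave 183 and 217 CPM, Pcgf6-/- gave 183 and 182 CPM, and the libraries labelled Pcgf1/2/4-/- gave 175 and 173 CPM. Those labelled Pcgf2/4-/- followed with 117 and 134 CPM. Pcgf3/5-/- stood at 99.2 and 102 CPM, and the libraries labelled Pcgf3/5/6-/- at 94.4 and 99.6 CPM. None of the 12 knockout libraries reached down to the wild-type values. Pcgf1-/- and Pcgf6-/- overlapped each other, as did Pcgf3/5-/- and the libraries labelled Pcgf3/5/6-/-, and the other neighbours in this order did not overlap.

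The fitted log2 fold changes of Pramef8 were 2.02 (SE 0.13) in Pcgf1-/-, 1.89 (SE 0.12) in Pcgf6-/-, 1.82 (SE 0.13) in the libraries labelled Pcgf1/2/4-/-, 1.35 (SE 0.13) in those labelled Pcgf2/4-/-, 1.03 (SE 0.12) in Pcgf3/5-/- and 0.98 (SE 0.13) in those labelled Pcgf3/5/6-/-. All 6 comparisons share the same wild-type libraries. The authors' deposited tables give the same signs for Pramef8, with log2 fold changes of 1.04 to 2.07.

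Pramef25 moved in opposite directions between lines, over a span from 103 CPM to under 1 CPM. The wild-type libraries gave 9.98 and 6.74 CPM. Both Pcgf6-/- libraries were far above that, at 100 and 107 CPM (1501 counts against 118 in wild-type). The libraries labelled Pcgf3/5/6-/- came next at 21.1 and 20.3 CPM. Below wild-type stood the libraries labelled Pcgf2/4-/- at 2.93 and 3.83 CPM. Pcgf1-/- held 9 and 1 counts, Pcgf3/5-/- 3 and 0, and the libraries labelled Pcgf1/2/4-/- 0 and 1. These last 3 groups overlap in CPM and cannot be ordered, and all other neighbours were apart. Of the 50-base windows in its exons 60.5% have an exact copy elsewhere in the genome, so that which copies these counts stand for is uncertain.

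For Pramef25 the fitted log2 fold change was 3.62 (SE 0.22) in Pcgf6-/- and 1.31 (SE 0.26) in the libraries labelled Pcgf3/5/6-/-; with offsets that remove the trend of fold change with level these became 2.90 and 0.59. It was -1.21 (SE 0.33) in the libraries labelled Pcgf2/4-/- and -3.47 (SE 0.42) in Pcgf1-/-. The summed counts left 8.85% of the wild-type level in Pcgf1-/- (exact 95% interval 4.14% to 16.9%), 2.83% in Pcgf3/5-/- (0.575% to 8.47%) and 2.93% in the libraries labelled Pcgf1/2/4-/- (0.0735% to 16.6%), where the intervals cover counting error only. Leaving out 1 library moved the fitted values of these 3 lines over a wide range, from -5.05 without Pcgf1-/- replicate 1 to -2.95 without replicate 2, from -8.45 without Pcgf3/5-/- replicate 1 to -4.30 without replicate 2, and from -8.56 without replicate 2 of the third to -4.13 without its replicate 1. In all of them Pramef25 stayed below wild-type.

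**Figure D1:**
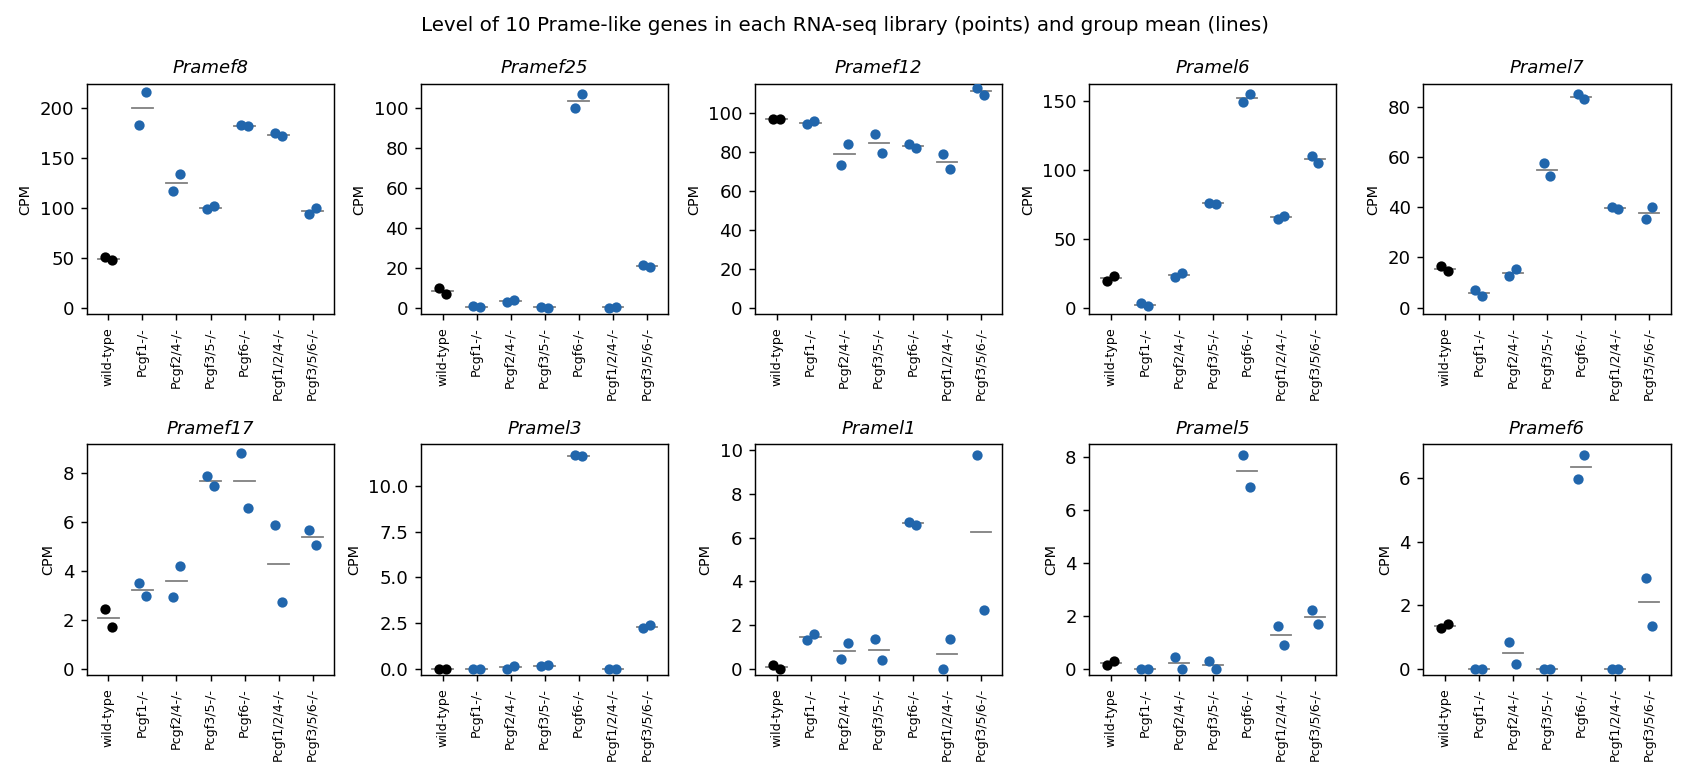
CPM (read counts scaled to TMM library size; linear axes that differ between panels) of the 10 Prame-like genes in each of the 14 RNA-seq libraries; points are libraries, black for wild-type, and short lines are group means of 2 libraries. Pramef8 lies at 50.7 and 47.9 CPM in wild-type and above 94 CPM in every knockout library, whereas Pramef25 exceeds its wild-type libraries only in Pcgf6-/- and in the libraries labelled Pcgf3/5/6-/-.

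Across the 14 libraries the log2 CPM of Pramef8 and Pramef25 had a Pearson correlation of -0.139. Pramef25 was closest within the family to Pramef6 (0.959), then Pramel3 (0.832) and Pramel5 (0.707), while no family member came above 0.416 (Pramel1) for Pramef8. The coding sequences run otherwise: those of Pramef8 and Pramef25 were 74.9% identical over 1440 aligned bases, the highest identity of either to any of the other 8. Those of Pramef25 and Pramef6 were 64.7% identical. These correlations describe 14 libraries that share depth and genotype, and they carry no test.

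Outside the family, and among 12961 genes with a mean log2 CPM of at least 1, the genes most like Pramef8 were Hist3h2a (Pearson correlation 0.871 over 14 libraries), Rpl3l (0.862), Gal3st4 (0.847), Eva1c (0.845) and Nr3c2 (0.842). Hist3h2a encodes a histone H2A, Rpl3l a muscle form of ribosomal protein L3, Gal3st4 a galactose sulfotransferase and Nr3c2 the mineralocorticoid receptor. Hist3h2a had 6.37 CPM in wild-type, 19.8 ± 4.43 CPM in Pcgf1-/- and 23.5 ± 2.48 CPM in Pcgf6-/- (SD, n = 2). For Pramef25 they were Ipp (0.981), BC080695 (0.972), Usp17lb (0.972), Prkch (0.97) and Gpd1 (0.97). Usp17lb encodes a deubiquitinase, Prkch protein kinase C eta and Gpd1 a glycerol-3-phosphate dehydrogenase. Usp17lb had 6.94 CPM in wild-type, 112 ± 5.41 CPM in Pcgf6-/- and 1.49 ± 0.821 CPM in Pcgf1-/-, and Ipp moved over a much smaller range, 55.9 ± 0.466 CPM in Pcgf6-/- against 40 CPM in wild-type. With Spearman's correlation 3 of the 5 genes most like Pramef8 and 2 of the 5 most like Pramef25 were the same. With a prior count of 0.5 it was 4 for Pramef8 and only 1, Ipp, for Pramef25.

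A list of cleavage-stage embryo markers moved with Pramef25. Embryonic stem cell cultures hold a rare, transient population that expresses such genes, among them the Zscan4 and Usp17l families. Of 12 markers listed, 10 are in the count table and all 10 were tested. Their summed level was 170 to 175 CPM in the wild-type libraries and 800 to 866 CPM in Pcgf6-/-, where all 10 were raised against 27.8% of all genes tested. It was 527 to 538 CPM in the libraries labelled Pcgf3/5/6-/- with 8 raised (28% of all genes). In Pcgf1-/- it was 5.48 to 19.7 CPM with all 10 lowered (18.4% of all genes) and in Pcgf3/5-/- 20.9 to 22 CPM with 7 lowered (10.4%). It was 29.3 to 30.9 CPM with 8 lowered (22.6%) in the libraries labelled Pcgf1/2/4-/- and 82 to 86.2 CPM with 7 lowered (13.5%) in those labelled Pcgf2/4-/-. Tdpoz1 was the marker at 0 counts, in Pcgf1-/- and in the libraries labelled Pcgf1/2/4-/-. It had 49 counts in Pcgf6-/- and at most 8 in any other group, so a high level in Pcgf6-/- was a condition of its being tested. The summed level of 8 germ cell and oocyte markers was 166 to 171 CPM in wild-type and 746 to 819 CPM in Pcgf6-/-, where 6 of 7 tested were raised and Zp3 was lowered (27.8% and 18.6% of all genes), and Oog1 was at 0 counts in wild-type. In the libraries labelled Pcgf3/5/6-/- that sum was 617 to 626 CPM, with 6 raised and 1 lowered (28% and 25.3%). Across the other knockout lines it lay between 106 and 182 CPM. The part of either list in the level of Pramef25 was not tested, and in bulk RNA more cells of a kind and more RNA per cell cannot be told apart. All 8 markers of embryonic stem cells were tested. In Pcgf6-/- Sox2 was raised (log2 fold change 0.36) and Esrrb lowered (-0.68), against 27.8% and 18.6% of all genes, with a median of 0 over the 8. In the libraries labelled Pcgf1/2/4-/- 5 were raised, against 14.4% of all genes, namely Pou5f1 (1.33), Nanog (0.70), Sox2 (0.40), Zfp42 (1.09) and Dppa5a (1.49), and none was lowered. In those labelled Pcgf3/5/6-/- Pou5f1 (0.85) and Nanog (0.69) were raised and Klf4 (-0.69) and Tfcp2l1 (-0.95) lowered, against 28% and 25.3%. Pcgf1-/- had 1 raised and 1 lowered, against 13.9% and 18.4% of all genes. The libraries labelled Pcgf2/4-/- had 2 raised and 0 lowered (8.1% and 13.5%), and Pcgf3/5-/- had none of either (11.1% and 10.4%). A count of 0 or 1 of the 8 lies near or below these shares and is no result about the list. Primitive endoderm markers (6, of which 4 were tested) summed to 3.09 to 3.56 CPM in wild-type and 48.1 to 55 CPM in Pcgf6-/-, with 2 raised, and Gata4, Gata6, Sox17 and Dab2 had 0 counts in wild-type. For 5 trophoblast markers the sums were 132 to 139 and 200 to 204 CPM, with 3 raised and 2 lowered, and for 6 mesoderm and fibroblast markers 45.1 to 54.6 and 40.4 to 47.5 CPM, with 4 raised and 2 lowered. The background for these last 3 lists in Pcgf6-/- is again 27.8% raised and 18.6% lowered. In the libraries labelled Pcgf3/5/6-/- their sums were 56.5 to 65.2, 607 to 617 and 58.4 to 61.9 CPM. There 3, 3 and 4 were raised and 0, 2 and 1 lowered (28% and 25.3%). Primitive endoderm markers summed to 14.9 to 15.8 CPM in those labelled Pcgf1/2/4-/- and 0.228 to 1.31 CPM in Pcgf1-/-.

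Pramel6 and Pramel7, the neighbours on chromosome 2 that lie downstream of LIF and STAT3, behaved alike in direction. Pramel6 gave 19.5 and 23.0 CPM in wild-type, 149 and 155 CPM in Pcgf6-/-, 110 and 105 CPM in the libraries labelled Pcgf3/5/6-/-, 76.4 and 75.1 CPM in Pcgf3/5-/-, 64.5 and 66.8 CPM in those labelled Pcgf1/2/4-/-, 22.6 and 25.3 CPM in those labelled Pcgf2/4-/- and 3.49 and 1.14 CPM in Pcgf1-/-. Pramel7 gave 16.7 and 14.5 CPM in wild-type, 85.1 and 82.8 CPM in Pcgf6-/-, 57.6 and 52.3 CPM in Pcgf3/5-/-, 40 and 39.2 CPM in the libraries labelled Pcgf1/2/4-/-, 35.4 and 39.9 CPM in those labelled Pcgf3/5/6-/-, 12.6 and 15.3 CPM in those labelled Pcgf2/4-/- and 7.10 and 4.57 CPM in Pcgf1-/-. Both genes were thus highest in Pcgf6-/- and lowest in Pcgf1-/-, and both overlapped wild-type only in the libraries labelled Pcgf2/4-/-.

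With edgeR's quasi-likelihood test and Benjamini-Hochberg adjustment over 15464 genes, Pramel6 rose in Pcgf6-/- (log2 fold change 2.83, SE 0.15, adjusted p = 3.32e-09) and fell in Pcgf1-/- (-2.98, SE 0.23, adjusted p = 9.08e-07). By the same edgeR test Pramel7 rose in Pcgf6-/- (2.43, SE 0.14, adjusted p = 9.68e-09) and fell in Pcgf1-/- (-1.33, SE 0.19, adjusted p = 1.15e-04). Both also rose in Pcgf3/5-/- (count ratios of 3.56 and 3.56), in the libraries labelled Pcgf1/2/4-/- (3.09 and 2.54) and in those labelled Pcgf3/5/6-/- (5.07 and 2.41), and all these calls held under every alternative that was run. In Pcgf1-/- 12.8% of the wild-type level was left for Pramel6 (exact 95% counting interval 8.86% to 18.1%) and 40.3% for Pramel7 (31% to 52%), and the difference between the 2 genes was not tested.

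Pramef12 was the most abundant member per length in wild-type, and its level differed least between lines. Its exonic length of 2573 bases put it at 37.6 CPM per kb in wild-type, against 11.8 for Pramef8, 10.2 for Pramel6, 7.30 for Pramel7, 3.91 for Pramef25 and 1.17 or less for the other 5, though the annotation used for counting is not given in the sources used here. Levels ran from 96.9 and 96.5 CPM in wild-type to 112.7 and 109.1 CPM in the libraries labelled Pcgf3/5/6-/-, the highest, and 78.9 and 70.8 CPM in those labelled Pcgf1/2/4-/-, the lowest. The last was its only call (edgeR log2 fold change -0.37, SE 0.11, adjusted p = 0.019), and it was lost when any 1 of the 4 libraries compared was left out (lowest adjusted p = 0.0513) and when the wild-type libraries were summed to 1 sample (0.0707). Some alternatives called Pramef12 elsewhere. It passed as raised in the libraries labelled Pcgf3/5/6-/- with RLE factors, with loess offsets and with only the 2 groups compared. In Pcgf6-/- it passed as lowered with only the 2 groups compared. D530049N12Rik, a transcript annotated on the other strand, overlaps Pramef12, and no source used here says that strand was used in counting, so reads of the 2 cannot be told apart.

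The remaining 5 genes were low or absent in wild-type and higher in Pcgf6-/-. Pramef17 gave 2.42 and 1.69 CPM in wild-type and 8.83 and 6.58 CPM in Pcgf6-/-, which overlaps the 7.88 and 7.47 CPM of Pcgf3/5-/-. Pramef6 gave 1.28 and 1.41 CPM in wild-type and 5.97 and 6.73 CPM in Pcgf6-/-. Pramel5 had 3 counts in wild-type and 110 in Pcgf6-/-, Pramel1 had 1 and 97, and Pramel3 had 0 and 170. All but Pramel1 share 31.2% to 81.9% of their exonic 50-base windows with other places in the genome, which leaves their counts uncertain. Pramel3 and Pramel5 reached 10 counts in 2 of the 14 libraries, both of them Pcgf6-/-. Pramel5 and Pramef6 passed the filter on low counts only through the Pcgf6-/- libraries, so a difference there was a condition of being tested.

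Each of these 5 passed the edgeR test in Pcgf6-/-, though for Pramel5 and Pramef6 a high level there was a condition of being tested. Pramel3 was at least 54.9-fold higher there (floor of 3 counts over the wild-type libraries), with an adjusted p of 2.84e-07. Pramel1 was 94.1 times its wild-type level, with a counting interval of 16.5 to 3750 that reflects its 1 wild-type count, and Pramel5 35.6 times (11.9 to 175). Pramel1 reached 9.79 and 2.70 CPM in the libraries labelled Pcgf3/5/6-/-, which spans its 6.72 and 6.58 CPM in Pcgf6-/-. Pramef17 rose by a log2 fold change of 1.91 (SE 0.31, edgeR adjusted p = 1.43e-04). Pramef6 rose by 2.21 (SE 0.36, edgeR adjusted p = 3.74e-04), but with the offsets that remove the trend with level this became 0.67 with an adjusted p of 0.17.

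Pramef6 had 0 counts in 3 knockout groups. Against 19 counts in wild-type it was at least 6.07-fold lower in Pcgf1-/-, at least 5.69-fold lower in Pcgf3/5-/- and at least 1.83-fold lower in the libraries labelled Pcgf1/2/4-/- (floor of 3 counts over the group). These passed the edgeR test with adjusted p of 0.00366, 0.00657 and 0.0362. The first was lost without Pcgf1-/- replicate 1 (0.0571), the second without Pcgf3/5-/- replicate 1 (0.0579), and the third without any 1 of the 4 libraries compared, with the wild-type libraries summed (0.0655), with a term for the replicate number (0.0527) and with the offsets that remove the trend with level (0.0507). With only the 2 groups compared in the fit, Pramef6 did not pass the filter on low counts in these 3 lines and was not tested. In the libraries labelled Pcgf3/5/6-/- Pramef6 gave 2.84 and 1.35 CPM, which overlaps wild-type.

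Among the 8 genes, 7 passed as raised and 0 as lowered in Pcgf6-/-, where 27.8% of all genes tested passed as raised and 18.6% as lowered. Pramef12 was the exception. Among the 6 genes that pass the filter on low counts without the Pcgf6-/- libraries, which leaves out Pramel5 and Pramef6, 5 were raised. Among the 8, 6 passed as raised and 0 as lowered in the libraries labelled Pcgf3/5/6-/-, against 28% and 25.3% of all genes, and 5 of those 6 genes. They were the same genes but Pramef6, and of them Pramef17 and Pramel5 missed the threshold with the offsets that remove the trend with level (adjusted p = 0.0672 and 0.116 by edgeR), without replicate 1 of those libraries (0.0622 and 0.0554) and, for Pramef17, without wild-type replicate 2 (0.0586). Outside Pcgf6-/-, Pramel3 held 7 and 7 counts in the libraries labelled Pcgf3/5/6-/- and at most 1 in any other library. Pramel1 was also highest there, at 31 and 8 counts. Leaving out the Pcgf6-/- libraries thus does not free the count for that line from the filter. With only the 2 groups compared, Pramel3, Pramel5 and Pramef6 were not tested in that line. In Pcgf3/5-/- 3 passed as raised (Pramel6, Pramel7, Pramef17) and 1 as lowered (Pramef6), against 11.1% and 10.4%. The libraries labelled Pcgf1/2/4-/- had 2 raised (Pramel6, Pramel7) and 2 lowered (Pramef12, Pramef6), against 14.4% and 22.6%. With DESeq2 only 1 of the 8 passed as lowered in those libraries.

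In Pcgf1-/- 1 of the 8 was raised (Pramel1) and 3 were lowered (Pramel6, Pramel7, Pramef6), against 13.9% and 18.4% of all genes. Pramel1 held 19 counts there against 1 in wild-type (edgeR adjusted p = 0.0267), a call lost when any 1 of the 4 libraries compared was left out. For the libraries labelled Pcgf2/4-/- edgeR called 0 of the 8, with 4 at an unadjusted p under 0.05, and DESeq2 also called 0; 8.1% of all genes passed as raised and 13.5% as lowered. The median log2 fold change of the members with a fold was 2.63 in Pcgf6-/- (8 genes), 1.86 in the libraries labelled Pcgf3/5/6-/- (8), 1.83 in Pcgf3/5-/- (6), 1.18 in those labelled Pcgf1/2/4-/- (6), 0.04 in those labelled Pcgf2/4-/- (6) and -0.68 in Pcgf1-/- (6), with the same medians when genes at 0 counts were set to their bounds. Over all genes the medians lay between -0.11 and 0.049. The medians of the members include Pramel5 and Pramef6 where they have a fold, and both passed the filter on low counts only through the Pcgf6-/- libraries.

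**Figure D2:**
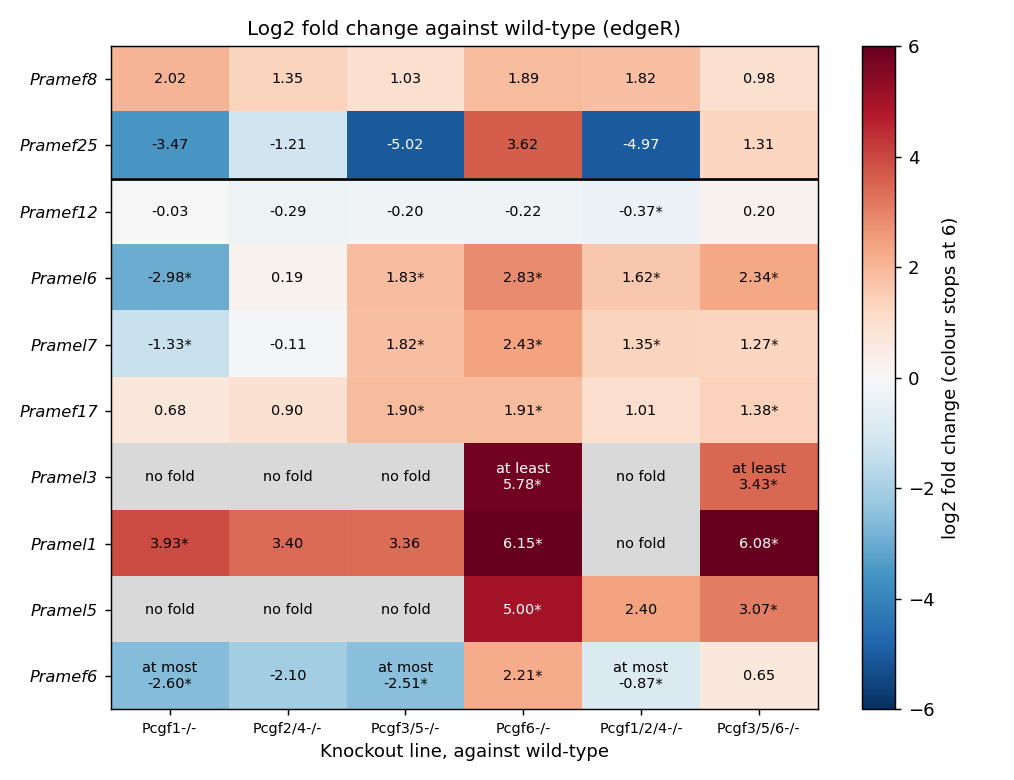
Log2 fold change against wild-type in each knockout line (columns) for the 10 genes (rows; the black line divides Pramef8 and Pramef25, which have no test, from the other 8). An asterisk marks an edgeR adjusted p under 0.05 among the 8, "at least" and "at most" mark bounds where a group had 0 counts, and grey marks pairs in which both groups held 3 counts or fewer. The Pcgf6-/- column has 7 asterisks and the Pcgf2/4-/- column none, and Pramef25 takes its sign from 3.62 in Pcgf6-/- to -5.02 in Pcgf3/5-/-.

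The wider family was looked up through RefSeq names of the later GRCm38.p6 assembly, a list added after the files had been seen. RefSeq lists 49 Prame-like genes, of which 32 are in the count table under a current or older symbol and 22 are not among the 10. Of these 22, 8 were tested, and 2 of the 8 (Gm13078 and Prame) passed the filter on low counts only through the Pcgf6-/- libraries. All 8 were raised in Pcgf6-/-, against 27.8% of all genes, and so were the 6 that did not need those libraries to pass. In the libraries labelled Pcgf3/5/6-/- 5 were raised (4 of the 6), against 28%. None was raised and 6 were lowered in Pcgf1-/- (5 of the 6), against 18.4% lowered over all genes. In Pcgf3/5-/- 2 were raised and 6 lowered (1 and 5 of the 6), against 11.1% and 10.4%. The libraries labelled Pcgf1/2/4-/- had 5 lowered (4 of the 6), against 22.6%, and those labelled Pcgf2/4-/- had 4 lowered (4 of the 6), against 13.5%. A gene not tested ran the other way in Pcgf6-/-: Gm13125 (Pramel15 in RefSeq) had 23 counts in wild-type and 0 in Pcgf6-/-, so that raised calls among the tested genes do not stand for all 22. Gm12794 (Pramel19 in RefSeq) had 27.1 CPM in wild-type, 120 ± 5.85 CPM in Pcgf6-/- and 0.551 ± 0.456 CPM in Pcgf1-/-. Gm13119 (Pramel31) had 21.2, 166 ± 13.5 and 0.660 ± 0.611 CPM, and its sequence is among those that share 50-base windows with Pramef25. Among the 8 tested, Gm13128 likewise shares such windows with Pramef17, and Gm13083 and Gm13078 share them with Pramef6. Reads may be shared between these copies, so their calls may not be separate from those of the 10 genes. Prame, the namesake gene, had 0 counts in wild-type and 155 in Pcgf6-/-. The sum of the 22 ran from 55.4 to 69.3 CPM in wild-type, 394 to 419 CPM in Pcgf6-/- and 5.48 to 10.2 CPM in Pcgf1-/-.

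Genes of the pathways that Pramel6 and Pramel7 belong to were examined as fixed lists. All 4 genes of the CUL2 ligase were tested: none passed in 5 of the lines, and Tceb2 (elongin B) and Rbx1 were raised in the libraries labelled Pcgf1/2/4-/- (log2 fold changes 1.08 and 0.69), against 14.4% of all genes raised there. Of 5 LIF and STAT3 genes, 3 fell in Pcgf6-/-, namely Lifr (-0.79), Il6st (-0.72), which encodes the shared receptor chain gp130, and Stat3 (-0.39), and 0 rose, against 18.6% of all genes lowered and 27.8% raised. In Pcgf1-/- Lifr (0.31) and Il6st (0.70) rose and the feedback inhibitor Socs3 (-1.75) fell, against 13.9% and 18.4% of all genes, while in Pcgf3/5-/- none of the 5 passed. Of the same 5, 4 fell in the libraries labelled Pcgf1/2/4-/- (22.6% of all genes) and 3 fell in those labelled Pcgf3/5/6-/- (25.3%). In those labelled Pcgf2/4-/- 3 fell and 1 rose (13.5% and 8.1%).

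Of 7 DNA methylation genes, the de novo methyltransferase gene Dnmt3a rose in Pcgf6-/- (log2 fold change 1.08) while Dnmt3b (-1.18), Tet1 (-0.88) and Tet2 (-0.44), which encode a second de novo enzyme and enzymes that oxidize methylcytosine, fell, against 27.8% of all genes raised and 18.6% lowered. In Pcgf3/5-/- 1 rose and 2 fell (11.1% and 10.4% of all genes), and in Pcgf1-/- 1 rose and 0 fell (13.9% and 18.4%). The libraries labelled Pcgf2/4-/- had 1 raised and 4 lowered (8.1% and 13.5%), those labelled Pcgf1/2/4-/- 3 raised and 1 lowered (14.4% and 22.6%) and those labelled Pcgf3/5/6-/- 2 of each (28% and 25.3%). Counts of 1 or 2 of 7 lie near these shares and are no result about the list. Uhrf1 passed in 1 line, as raised in the libraries labelled Pcgf1/2/4-/- (0.54).

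Peaks were sought within 2.5 kb of every annotated start of the 10 genes in all 80 lists. In all, 22 lists held a peak near 1 or more members, 5 genes (Pramef8, Pramef12, Pramel6, Pramel7 and Pramel1) had a peak in some list, and 5 (Pramef25, Pramef17, Pramel3, Pramel5 and Pramef6) had none in any. The lists of PCGF1 (8), PCGF2 (8), PCGF3 (10), SUZ12 (7) and WDR5 (1) held none near any member. Their shares of coding genes with a peak were 0.00894% to 31.7% for PCGF1 (2.47% in wild-type), 0.755% to 19.5% for PCGF2, 0.00894% to 2.26% for PCGF3, 13% to 21% for SUZ12 and 9.16% for WDR5. At most of these shares 0 of 10 genes is near the background and is no result about the members. Each list comes from 1 sample and the lists range from 5 to 128786 peaks. Only RING1B and H2AK119ub1 in the line labelled Pcgf1/2/4-/- have a second list, so that differences between lists have no replicate spread, and the enrichments given are the authors' values for single peaks.

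H3K4me3, the mark of active starts, was called near 3 of the 10 genes in wild-type (Pramef8, Pramef12 and Pramel1), against 66.2% of 22380 annotated protein-coding genes. The Pramef8 start lay in a peak of 21.0-fold enrichment in wild-type, 27.4-fold in Pcgf1-/-, 28.6-fold in Pcgf3/5-/-, 38.2-fold in Pcgf6-/- and 18.5-fold in the line labelled Pcgf2/4-/-. Pramef12 had 62.3-fold in wild-type and 22.3- to 54.9-fold in the 4 knockout lines. Pramel1, with 1 count in wild-type RNA, had a narrow peak of 355 bases and 9.18-fold in wild-type and one of 1221 bases and 21.8-fold in Pcgf6-/-, and none in the other lines. Pramel7 had a peak in Pcgf1-/- (10.3-fold) and in Pcgf3/5-/- (19.5-fold), and Pramel6 in Pcgf3/5-/- (18.2-fold). Neither had one in Pcgf6-/-, the line with their highest RNA level, nor in wild-type. The shares over all coding genes were 65.1% in Pcgf1-/- (3 members), 64.9% in Pcgf3/5-/- (4), 67.9% in Pcgf6-/- (3) and 66.1% in the line labelled Pcgf2/4-/- (2).

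H3K36me3, which follows elongating polymerase, covered the body of Pramef8 in every line: 45.2% of the gene in wild-type, 71.1% in Pcgf1-/-, 69.6% in Pcgf6-/-, 65.5% in Pcgf3/5-/- and 15.8% in the line labelled Pcgf2/4-/-. Pramef12 was covered over 9.67% to 24.7%. Pramel6 was covered in Pcgf3/5-/- alone (29.1%) and Pramel1 in Pcgf6-/- alone (44.8%). The share of coding genes overlapped by a peak was 38.3% in wild-type, 41.7% in Pcgf1-/-, 41.9% in Pcgf3/5-/-, 41.9% in Pcgf6-/- and 38.4% in the line labelled Pcgf2/4-/-, against 2, 2, 3, 3 and 2 of the 10 members. Within 2.5 kb of a start the share was 26.2% in wild-type and 28.5% in the line labelled Pcgf2/4-/-, with no member in either. It was 31.5% in Pcgf1-/- (Pramef8), 31.6% in Pcgf3/5-/- (Pramef8 and Pramel6) and 31.3% in Pcgf6-/- (Pramef8 and Pramel1).

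Pramel1 was the member with PCGF6 at its start, which the CG-rich sequence shown above borders. In wild-type the PCGF6 peak was 250 bases wide, from 69 bases before to 180 after the start, with 5.67-fold enrichment and a -log10 q of 6.37, and 5.77% of coding genes had a peak in that list. PCGF6 peaks were called there in 6 of 12 PCGF6 lists: besides wild-type, in Pcgf1-/- (6.14-fold, against 17.6% of coding genes), in the line labelled Pcgf2/4-/- (8.35-fold, 32.4%), in Pcgf3/5-/- (7.08-fold, 5.32%), in the Ring1a-/-_Ring1bfl line (5.97-fold, 6.15%) and in the control knockdown shCtr (9.96-fold, 20.2%). The 6 lists with none there, from Pcgf6-/-, the Ring1a/b-/- line and the shMGA, shMGAdHLH, shE2F6 and shE2F6-MGAdHLH knockdowns, held 355 to 1642 peaks in all, against 1571 to 12842 in the other 6. No RING1B peak was called near any of the 10 genes in wild-type, against 15.1% of coding genes. A RING1B peak at Pramel1 was present in 1 of the 2 lists of the line labelled Pcgf1/2/4-/- (5.82-fold, 6.84% of coding genes) and in no other.

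Polycomb marks were called near Pramel1 in 3 lines. H2AK119ub1 had a peak there in Pcgf1-/- (7.76-fold, 9.79% of coding genes), in the line labelled Pcgf2/4-/- (8.64-fold, 40.8%) and in Pcgf3/5-/- (17.2-fold, 65%). H3K27me3 had one in the same lines, at 5.33-fold (19.4%), 6.29-fold (35.8%) and 7.70-fold (20.9%). Neither mark was called there in the other lines, wild-type and Pcgf6-/- among them, and the H2AK119ub1 lists of those 2 lines held 1741 and 5287 peaks against 10882 to 128786 in the 3 with a peak. The line labelled Pcgf3/5/6-/- had no Pramel1 peak in a longer H2AK119ub1 list than that of Pcgf1-/- (14353 peaks, 31.2% of coding genes), nor in its H3K27me3 list (14126 peaks, 19.7%). Pramef12 was the member with a USF1 peak in wild-type (17.3-fold, 16.2% of coding genes). It lay 1743 to 2122 bases after a start, with its summit in an intron, and held 0 copies of CACGTG. Variants of that string were not counted, and the 121 bases around the summit hold the similar string CACATG.

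**Figure D3:**
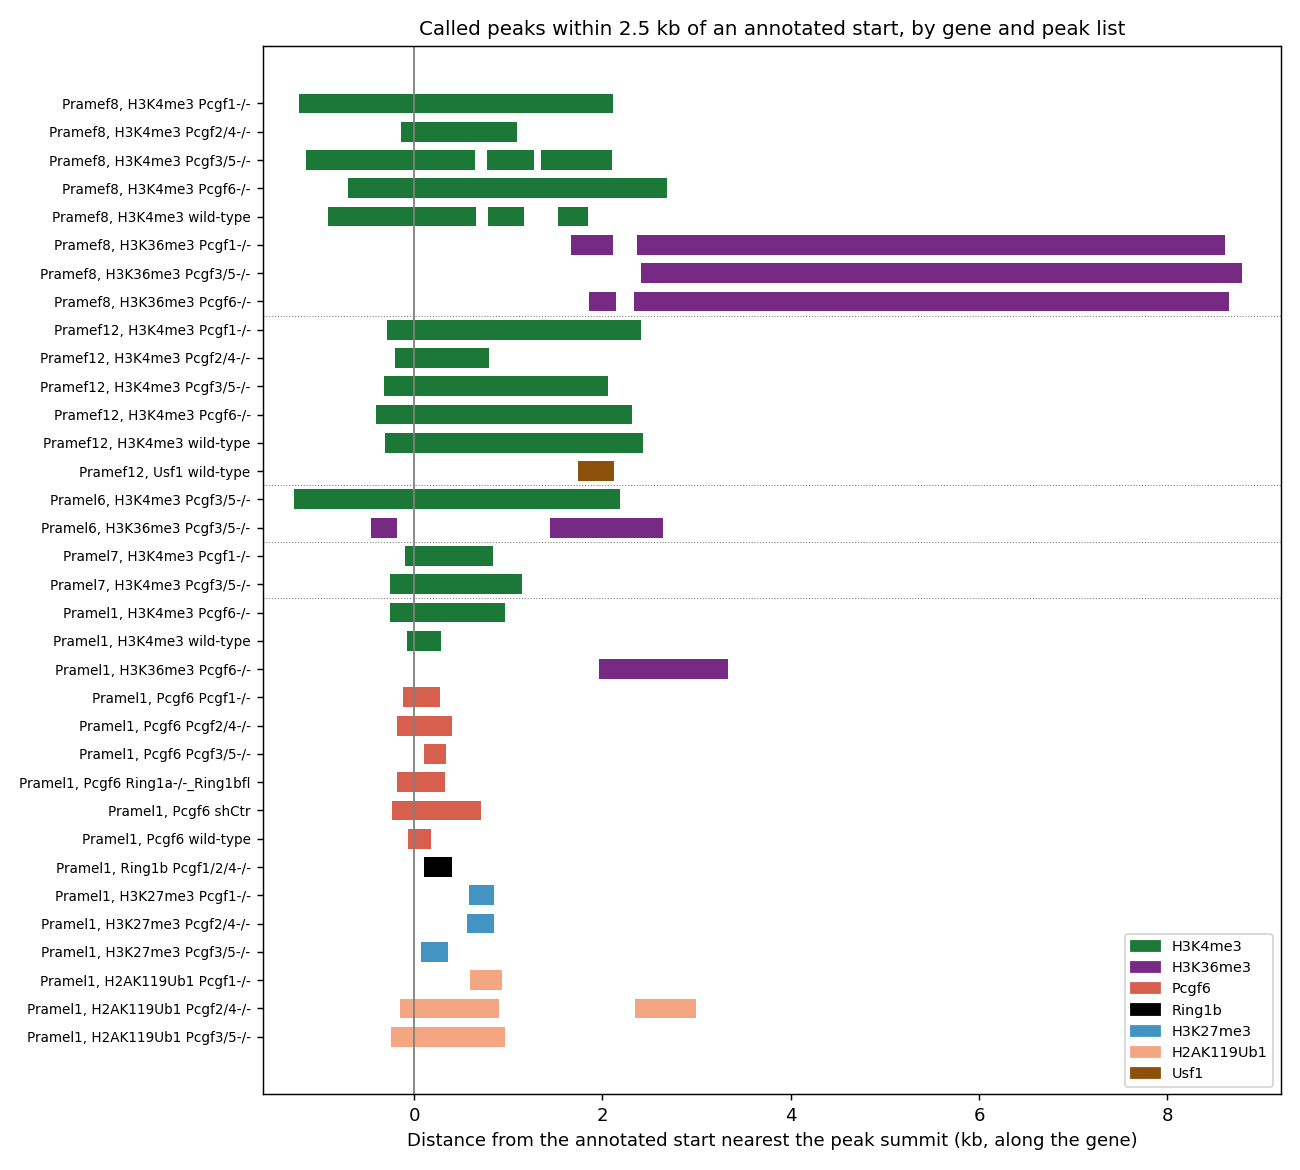
Peaks called within 2.5 kb of an annotated start, drawn by their distance in kb along the gene from the start nearest the summit; each row is 1 gene in 1 peak list, each bar 1 peak, and colours give the antibody. Pramef8 and Pramef12 have green H3K4me3 bars in all 5 lines, and the red PCGF6 bars belong to Pramel1.

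The genes without a peak are those whose sequence is repeated. Of all 50-base windows within 2.5 kb of a start, the share with an exact copy elsewhere in the genome was 1.61% for Pramef8, 2.24% for Pramel6, 3.21% for Pramel1, 4.56% for Pramef12 and 6.67% for Pramel7. For the 5 genes with no peak it was 31.2% (Pramel5), 39.8% (Pramef6), 40.3% (Pramef25), 46.9% (Pramef17) and 72.6% (Pramel3). How reads with several matches were treated is not given in the sources used here, and its part in the absence of peaks was not tested.

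The same holds for the RNA counts. Within exons 0% of the windows of Pramef8, Pramef12 and Pramel1 had a copy elsewhere, 0.112% of Pramel6 and 2.89% of Pramel7. The share was 60.5% for Pramef25, with most copies in annotated genes such as Gm13040, Gm13057 and Gm13119, 74.8% for Pramef17, all within Gm13128, 81.9% for Pramel3, 35.9% for Pramef6 and 31.2% for Pramel5. The counts of these 5 genes are therefore uncertain as to which copy they stand for, and reads may have been lost or shared between copies. ChIP reads were 50 bases long, per the labels, and the length of the RNA reads is not given there.

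**Figure D4:**
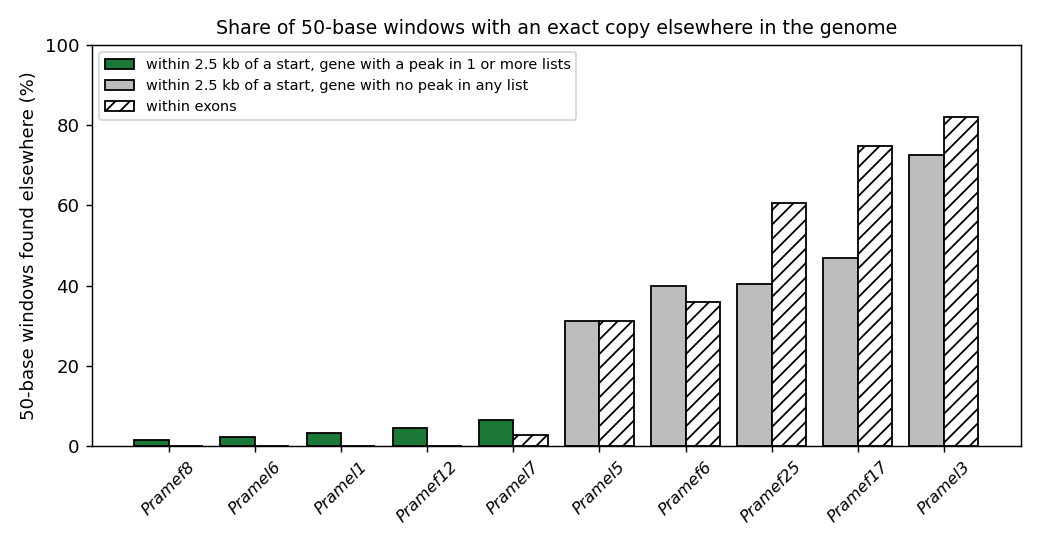
Share (%) of 50-base windows with an exact copy elsewhere in the NCBIM37 genome for each of the 10 genes, within 2.5 kb of a start (solid bars, green where the gene had a peak in 1 or more lists, grey where it had none) and within exons (hatched). The 5 genes with a peak lie at 1.61% to 6.67% near their starts and the 5 without at 31.2% to 72.6%.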

How the data were processed

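Poly-A RNA of 14 libraries was sequenced by a protocol derived from SMART-seq2, and the authors deposited whole-number read counts per gene symbol. Per the submitters' processing notes the build was mm9 and the tools, listed with no role or order, were bcl2fastq 2, TopHat2 2.1.1, Bowtie 1.2.2, Picard 1.62, HTSeq 0.7.2, DESeq2 3.7 and MACS2 2.1.1. The authors' deposited comparison tables give log2 fold changes and adjusted p-values; only the log2 fold changes were used, and the Pcgf6 table is headed with another clone name than the count table. Each deposited peak list gives a fold enrichment as a ratio, a -log10 p and a -log10 q per peak, 1 list per sample. No column of per-sample values was left unmapped (0).

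Counts were tested with edgeR 4.0.16 (quasi-likelihood, TMM factors, filterByExpr, 15464 of 23377 genes) in R 4.3.3, all 14 libraries in 1 fit, Benjamini-Hochberg threshold 0.05. The script was tested on simulated data. SEs were taken from the fold change and its F statistic. CPM are edgeR's counts relative to the TMM-scaled library size, with totals as given in the report, and intervals are exact 95% binomial. A group with 0 counts was given a floor of 3 counts. An exact two-sided permutation test of 2 against 2 libraries cannot go below p = 0.333 and was not used. Peaks were matched to starts of GENCODE M1 (NCBIM37) and sequences read from NCBIM37 with Python 3.11.15. Coding sequences were aligned globally with Biopython 1.88 (match 1, mismatch -1, gap opening -4, extension -0.5). Promoters are the 250 bases before the first start.

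Named genes are the 10 members, the targeted genes, the 5 non-family genes most correlated with Pramef8 and with Pramef25 (log2 CPM, prior count 2), and genes of fixed lists where they pass. The members and lists were chosen with earlier results of these data known. Alternatives were RLE factors, DESeq2 1.42.0, no filter, only the 2 groups compared, loess offsets against level, a replicate block, leaving out each library, a minimum absolute log2 fold change of 1, windows of 1 and 5 kb, a -log10 q of at least 10 and, added after seeing the data, the wild-type libraries summed. For the correlated genes they were Spearman's correlation and a prior count of 0.5.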

Additional observations from a re-analysis of the deposited data

How the results depend on the processing

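Among the counts of the 8 genes called per line, and of starts with a peak, 71 of 81 alternative values stayed within 1.5 times of the reported one. The count for the libraries labelled Pcgf2/4-/- went from 0 to 2 with loess offsets (Pramef12 and Pramef17) and ranged from 0 to 1 when each library compared was left out, with Pramef6 called without its replicate 1 (adjusted p = 0.0364) and Pramef12 without its replicate 2 (0.0272). That for the libraries labelled Pcgf1/2/4-/- went from 4 to 2 when any 1 of the 4 libraries compared was left out and to 2 with the wild-type libraries summed, and that for Pcgf1-/- from 4 to 2 without Pcgf1-/- replicate 1. In the libraries labelled Pcgf3/5/6-/- Pramef17 missed the threshold without wild-type replicate 2 (0.0586) and without their replicate 1 (0.0622), and Pramel5 without their replicate 1 (0.0554); with loess offsets both missed it (0.0672 and 0.116) while Pramef12 passed (0.35, 0.0122). Pramef12 also passed as raised in those libraries with RLE factors (0.27, edgeR adjusted p = 0.0283) and with only the 2 groups compared. In Pcgf6-/- it passed as lowered with only the 2 groups compared. Wild-type PCGF6 peaks near a member went from 1 to 0 with a -log10 q of at least 10. The sign turned for Pramef12 in Pcgf1-/-, at -0.03, to 0.03 with RLE factors, without a filter and with DESeq2, to 0.06 with loess offsets and with only the 2 groups compared, and to 0.07 without Pcgf1-/- replicate 2. It turned for Pramef6 in the libraries labelled Pcgf3/5/6-/-, at 0.65, to -0.93 with loess offsets and to 0 without their replicate 1, against 1.04 without their replicate 2. Replicate differences of the knockout lines had correlations of -0.0228 to 0.0597 with that of wild-type. The 2 wild-type libraries differ by no more than sampling noise, so these correlations cannot tell whether the replicate numbers pair the samples. Knockout pairs were not compared with each other. With the replicate block the counts stayed at 4, 0, 4, 7 and 6 and went to 3 in the libraries labelled Pcgf1/2/4-/-. Libraries of 2147968 counts put 3 counts at 1.6 CPM, above the level of Pramel3, Pramel1 and Pramel5 in most lines, so a difference between low levels was not detectable there.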
